A study of Mus musculus with 36 samples.

Results

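The 8 loci described here carry genes for transcriptional regulators that set up and maintain myeloid and dendritic cell identity, namely Spi1, Cebpa, Cebpb, Zbtb46, Id2, Klf4, Bcl6 and Runx3. Every deposited ATAC-seq peak whose mm10 interval overlapped one of these gene bodies, or the 20 kb to either side, was taken as a member, which gave 107 of 119751 peaks: 20 at Spi1, 10 at Cebpa, 15 at Cebpb, 23 at Zbtb46, 8 at Id2, 7 at Klf4, 13 at Bcl6 and 11 at Runx3. The rule uses gene positions and no measured value, and all 107 passed the filter on low counts. ATAC-seq uses a transposase to cut and tag open chromatin, so that the number of reads in a peak reports how accessible that stretch of DNA was.

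The cells were bone marrow-derived dendritic cells from female C57BL/6J mice of 6 to 8 weeks (strain field C57BL/6), grown from femur and tibia marrow with recombinant murine GM-CSF at 15 ng/mL. Every group, the unstimulated control included, had thus been exposed to that cytokine. Cultures were stimulated for 6 h with ligands of pattern recognition receptors: Z was depleted zymosan, S was SeV, cG was 3',3'-cGAMP, H was HMW, and L and P were LPS and PAM. They were given alone, as 8 pairs (PL, PH, LH, PS, PcG, ScG, ZS and ZcG) or as 3 triplets (PLH, PScG and ZScG). The labels do not spell out HMW, and SeV is the usual abbreviation of Sendai virus. There were 18 groups of 2 libraries each, 36 in all. The labels do not say whether the duplicates came from separate mice or cultures, so that the p-values measure the spread between these libraries, which may be technical.

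PU.1, the product of Spi1, and the C/EBP factors encoded by Cebpa and Cebpb are DNA-binding proteins that act together at myeloid enhancers, and PU.1 is needed for the development of macrophages and dendritic cells. ZBTB46 is a zinc finger protein found in conventional dendritic cells and their committed precursors, ID2 is an inhibitor of E proteins needed for some dendritic cell subsets, and KLF4 is a zinc finger factor of the monocyte lineage. BCL6 is a repressor that restrains inflammatory gene expression, and RUNX3 is a runt-domain factor that limits the maturation of dendritic cells. GM-CSF cultures are known to hold macrophage-like as well as dendritic cells, and in bulk libraries such as these a change in the share of a cell type and a change within its cells cannot be told apart.

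Total counts per library lay between 19097027 and 39977088, and between 8181254 and 21985891 without the single mitochondrial peak. The mitochondrial peak took 57.3 to 63.1% of the counts in the 10 libraries of control, Z, ZcG, ScG and ZScG and 44.1 to 58.1% in the other 26, and the share of tested counts that fell in member peaks was 0.0597 to 0.0712% in the first set and 0.0702 to 0.0915% in the second. Comparisons of the other 13 groups with control cross these sets, so that the ligands and the set cannot be told apart there, whereas Z, ZcG, ScG and ZScG against control, and P, L, H, S and cG against each other, stay within one. ZS is counted in the second set, but its libraries held 58.1 and 51.0%, and the higher lies within the range of the first. Among fixed marker lists, 10 of 11 myeloid and dendritic markers had a peak, 4 of them (Itgax, Itgam, Flt3 and Fcer1g) over the listed start and 6, among them Cd74, Csf1r and Spi1, over an end of the gene. The listed start of Zbtb46 had none. Their sum was 143 to 179 CPM per group, where CPM are counts scaled to library size with TMM factors. No B cell, erythroid or stromal marker had one (0 of 4, 0 of 3 and 0 of 3), and the T cell, NK cell and mast cell lists had 1 of 6 (Tcf7), 1 of 3 (Klrb1c) and 1 of 3 (Gata2), with no peak over Cd3e, Ncr1 or Cpa3. Of 5 neutrophil and precursor markers, S100a8 and Cebpe had a peak and Mpo, Elane and Ly6g had none. The summed level of that list was 26.5 CPM in control, the highest group, and 10.9 CPM in ZScG, the lowest. The T cell list (Tcf7) stood at 2.09 CPM in control and ranged from 1.43 in PH to 5.68 in ZS, the NK cell list (Klrb1c) stood at 15.9 CPM and ranged from 9.72 in PLH to 17.9 in Z, and the mast cell list (Gata2) stood at 4.09 CPM and ranged from 2.90 in PH to 7.62 in ZScG. The part of these lists in the results below was not tested.

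The start windows of 4 transcripts are shown because the peaks over them behaved differently. The Cebpa and Id2 start peaks were lower than control in most stimulations, while Bcl6 has an outer start whose peak was higher in 5 stimulations and an inner start whose peak was called in none. Each window runs from 250 bases before to 50 bases after the start base, is written 5′ to 3′ on the gene's strand and comes from RefSeq on GRCm38.p6, the assembly that mm10 denotes. The windows are chr7:35119043-35119342 on the plus strand for Cebpa, and on the minus strand chr12:25096043-25096342 for Id2, chr16:23988803-23989102 for Bcl6 outer and chr16:23981234-23981533 for Bcl6 inner. Capitals mark exact matches, on either strand, to any of 9 motifs searched: kappaB, ISRE, PU.1 (GAGGAAGT), C/EBP (TTGCGCAA), AP-1 (TGANTCA), STAT (TTCNNNGAA), BCL6 (TTCCTNGAA), RUNX (TGTGGT) and KLF (CCACCC).
Cebpa: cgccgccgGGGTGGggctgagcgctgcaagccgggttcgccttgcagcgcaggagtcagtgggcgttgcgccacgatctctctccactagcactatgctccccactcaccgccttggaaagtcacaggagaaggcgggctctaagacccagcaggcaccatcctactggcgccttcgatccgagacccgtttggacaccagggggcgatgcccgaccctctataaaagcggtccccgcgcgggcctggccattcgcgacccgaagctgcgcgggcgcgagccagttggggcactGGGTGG
Id2: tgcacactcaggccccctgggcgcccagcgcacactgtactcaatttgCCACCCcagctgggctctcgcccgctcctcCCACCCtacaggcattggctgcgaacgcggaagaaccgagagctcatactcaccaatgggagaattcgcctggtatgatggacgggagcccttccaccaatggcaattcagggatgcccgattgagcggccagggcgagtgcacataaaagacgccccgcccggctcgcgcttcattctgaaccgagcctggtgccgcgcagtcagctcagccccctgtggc
Bcl6 outer: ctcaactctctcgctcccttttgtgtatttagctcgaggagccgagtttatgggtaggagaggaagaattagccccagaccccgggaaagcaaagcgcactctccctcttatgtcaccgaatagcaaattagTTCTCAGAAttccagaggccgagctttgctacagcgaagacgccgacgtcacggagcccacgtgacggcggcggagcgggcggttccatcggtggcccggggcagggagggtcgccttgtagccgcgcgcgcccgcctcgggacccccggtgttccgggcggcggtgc
Bcl6 inner: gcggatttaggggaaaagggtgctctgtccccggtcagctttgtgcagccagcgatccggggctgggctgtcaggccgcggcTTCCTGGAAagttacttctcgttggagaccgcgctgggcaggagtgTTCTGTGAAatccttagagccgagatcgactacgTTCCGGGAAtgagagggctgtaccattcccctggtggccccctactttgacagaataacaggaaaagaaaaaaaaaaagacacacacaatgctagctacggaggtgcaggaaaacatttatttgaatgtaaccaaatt

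The Cebpa and Id2 windows each held 2 KLF letter matches, a motif present in 31.5% of the 32851 windows in the table. The Bcl6 outer window held 1 STAT match, and the inner window held 3, first bases 168, 122 and 88 bases before the start, of which the match at 168 bases was also the only BCL6 match. Any BCL6 match is by its letters also a STAT match. A STAT match was present in 8.30% and a BCL6 match in 1.59% of all windows. Of the 9 windows listed for 7 of the members (Spi1 had none), the Zbtb46 window held the only AP-1 match (7.81% of all windows) and the first Runx3 window the only RUNX matches, 2 of them (16.8%). The Klf4 window and the second Runx3 window held no match to the 9 motifs, and the GC content ranged from 50.7% for Zbtb46 to 80.7% for Cebpb, against a median of 52.7% over all windows. A letter match is a description of the sequence and not evidence of a bound site.

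Below, log2 fold changes are given with ± a standard error and the adjusted p of the edgeR quasi-likelihood test. Paired values are the 2 libraries of a group. The standard error was derived from that test, as the absolute log2 fold change divided by the square root of the F statistic. It is therefore no separate measure of the spread. Across the 17 stimulations against control, 69 of the 107 peaks were called in at least 1 (Benjamini-Hochberg adjusted p under 0.05 over all 119464 tested peaks), against 66.6% of all tested peaks. Of these, 48 were higher and 25 lower in at least 1 stimulation (35.0% and 34.1% of all peaks), 4 went both ways in different stimulations (2.46%), 38 were called in none (33.4%) and 1 was called in all 17 (1.49%). The members called in a single stimulation numbered 16 for P, 21 for L, 7 for H, 20 for S, 21 for cG and 6 for Z, while 20.5%, 22.3%, 10.7%, 27.9%, 23.3% and 5.91% of all peaks were called in these comparisons. For the pairs, the members called numbered 28 in PL (27.3% of all peaks), 24 in PH (26.3%), 20 in LH (21.8%), 30 in PS (33.4%), 39 in PcG (32.9%), 29 in ScG (27.7%), 24 in ZS (28.3%) and 14 in ZcG (21.6%). The triplets gave 28 in PLH (29.7%), 38 in PScG (37.1%) and 31 in ZScG (32.3%). The share of members called was below that of all peaks in 16 of the 17 comparisons, PcG being the exception. Calls summed over the 17 comparisons were 299 higher and 97 lower, and 207 and 56 without control replicate 1. Over all peaks, the share called higher ranged from 4.16% in Z to 19.0% in PScG, and that called lower from 1.75% in Z to 18.1% in PScG. The members gave 29 higher and 9 lower calls in PScG. The median log2 fold change of the 107 peaks ranged from 0.036 in Z to 0.46 in PScG, above the median of all peaks in each of the 17. All 17 comparisons use the same 2 control libraries, so they are not independent repeats. The 4 comparisons within the high mitochondrial set gave 59 higher and 21 lower calls: 4 and 2 in Z (4.16% and 1.75% of all peaks), 10 and 4 in ZcG (11.4% and 10.2%), 20 and 9 in ScG (14.4% and 13.3%) and 25 and 6 in ZScG (16.2% and 16.1%).

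**Figure D1:**
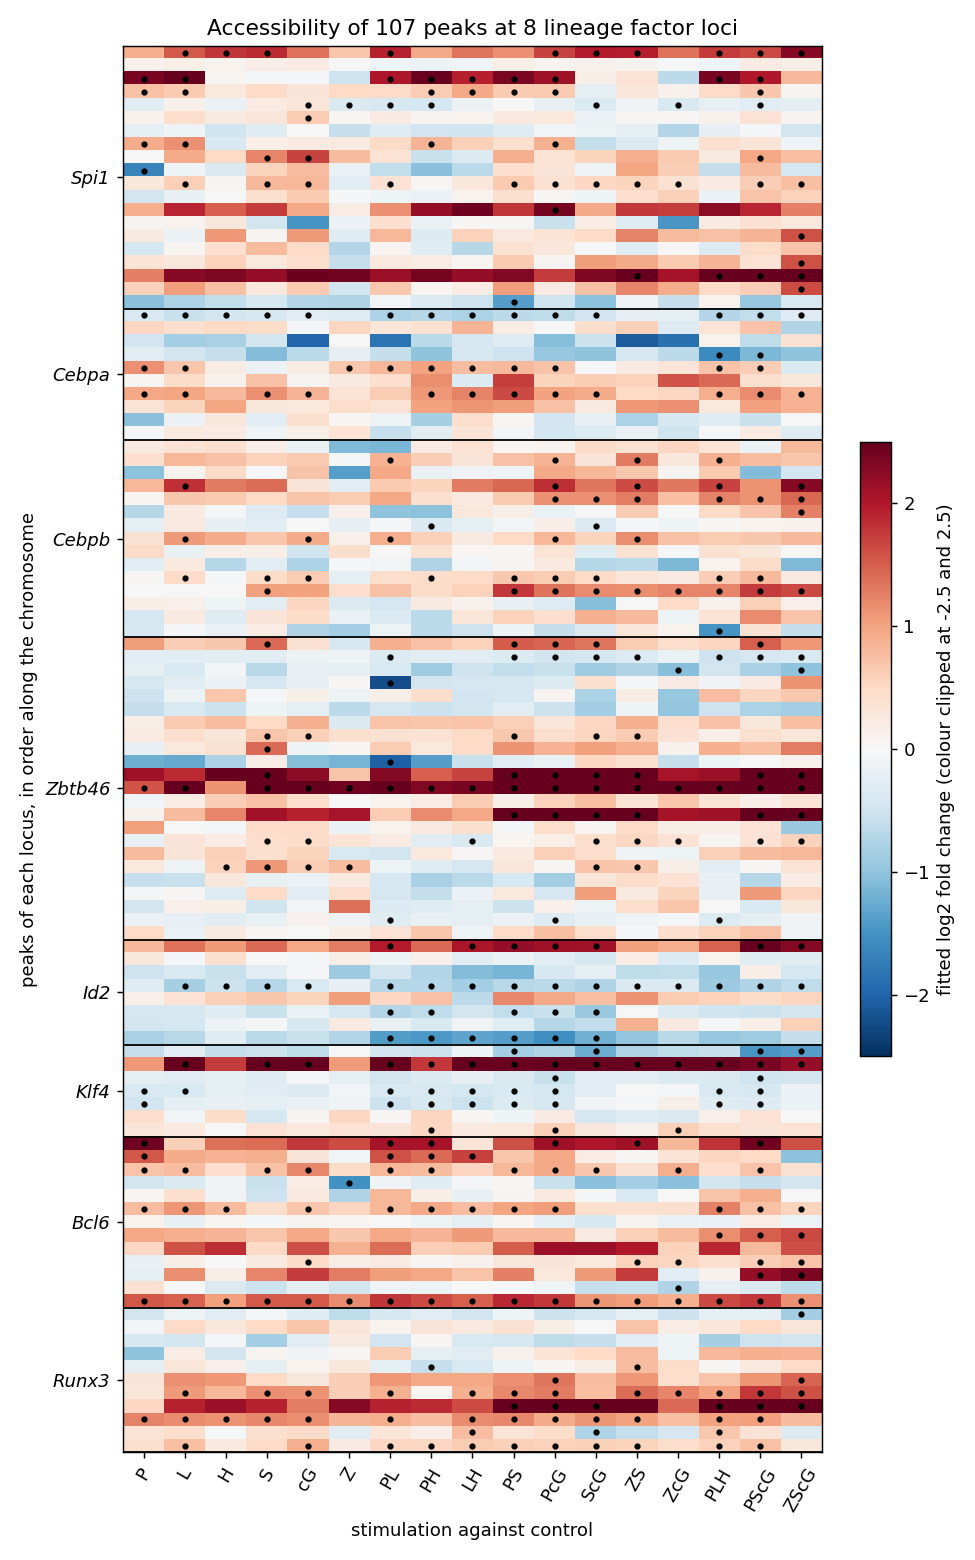
Fitted log2 fold change (colour) of each of the 107 member peaks (vertical axis, grouped by gene and ordered along the chromosome) in each of the 17 stimulations against control (horizontal axis), 2 libraries per group, with a black dot where the difference was called. The called peaks are spread over all 8 loci, and 1 peak at Bcl6 is dotted in all 17 columns.

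**Figure D2:**
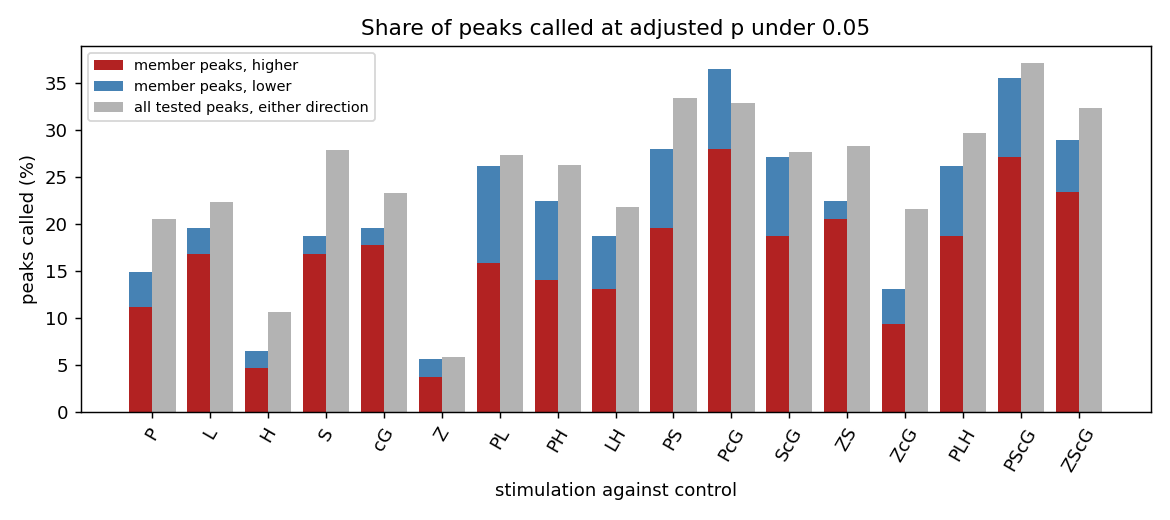
Percentage of the 107 member peaks called higher (red) and lower (blue) in each stimulation against control, beside the percentage of all 119464 tested peaks called in either direction (grey). The member bars stand below the grey bars in all comparisons but PcG.

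Calls at peaks over the members' own starts were mostly lower than control, and calls at the other peaks of the loci mostly higher. The first set holds 9 peaks over a listed start of a member or, for Spi1, over the gene end that overlapped a peak. Of these 9, 7 were called lower and 3 higher in at least 1 stimulation, with 47 lower and 7 higher calls in all. The Id2 start peak gave 15 of the lower calls and the Cebpa start peak 14. Of the other 98 peaks, 18 were called lower and 45 higher in at least 1, with 50 lower and 292 higher calls. Some of these 98 lie over the start of a neighbouring gene. The peak over the starts of Arfrp1 and Zgpat was lower in 8 stimulations and that over Tpd52l2 in 3. Among 11173 tested peaks over any start in the RefSeq table, 50.9% were lower and 26.8% higher in at least 1 of the 17. Over all tested peaks, starts included, 34.1% were lower and 35.0% higher. No share was taken for the peaks over no start, so the contrast is not shown to be particular to these loci. The direction of the start peaks depended on scaling: TMM and scaling by the total counts of the tested peaks placed the median log2 fold change of all peaks between -0.039 and 0.041 and between -0.039 and 0.45, and with total counts the 9 start peaks gave 18 lower and 27 higher calls. Offsets that let the scaling vary with abundance, an alternative chosen after seeing the data, gave 36 lower and 12 higher calls.

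The start peak of Id2, which encodes an inhibitor of E proteins (chr12:25095051-25096909, over the start window shown above), fell in 15 of the 17 stimulations. It stood at 46.2 and 41.2 CPM in the control libraries, 23.2 and 25.8 CPM with L, 23.3 and 25.2 CPM with LH and 24.2 and 22.1 CPM with PLH, so that both libraries of each of these groups lay below both controls. The log2 fold change was -0.83 ± 0.12, adjusted p = 4.64e-09 for L and -0.91 ± 0.12, adjusted p = 1.2e-10 for PLH. P and Z were the stimulations not called, with 34.9 and 36.04 CPM and 34.1 and 41.3 CPM. Between single ligands, the peak was lower with L than with P (-0.53 ± 0.12, adjusted p = 0.000513) and lower with S than with P (-0.42 ± 0.12, adjusted p = 0.00369), comparisons that need no control library. Scaled by total counts, 10 of the 17 were called lower, and with abundance-dependent offsets 14 were. Lower calls in at least 14 stimulations were seen for 8.80% of all start peaks with TMM and 5.24% with those offsets.

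The start peak of Cebpa, the gene of C/EBPα (chr7:35117935-35121084), fell in 14 of the 17. Its 2 control libraries, at 72.00 and 61.4 CPM, were the highest of the 36 and overlapped with no other group. The lowest values were 40.6 and 36.01 CPM with LH, 42.9 and 34.9 CPM with PL and 40.9 and 39.1 CPM with PLH, and the log2 fold change was -0.80 ± 0.10, adjusted p = 1.09e-10 for LH and -0.74 ± 0.10, adjusted p = 1.13e-09 for PLH. Z, ZS and ZcG were not called, and the call for ZScG, -0.32 ± 0.11, adjusted p = 0.0123, was lost without control replicate 1 (-0.20) or ZScG replicate 2 (-0.27). PL was lower than P alone (-0.39 ± 0.10, adjusted p = 0.0074), and PcG was lower than cG alone (-0.35 ± 0.10, adjusted p = 0.0132). With total counts, 5 of the 17 were called lower, and with abundance-dependent offsets 13 were, a number reached by 6.92% of all start peaks. The 3 tested peaks whose 18 group means of log2 CPM were most like those of the Cebpa start peak overlapped Tsc22d1, Pepd and Tpst2 (Pearson r = 0.94, 0.932 and 0.931), and those most like the Id2 start peak overlapped Cav2, Snx24 and Efnb1 (r = 0.93, 0.926 and 0.924). These are the highest of 119464 peaks and share the same 36 libraries, so that they are a description only.

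Klf4, the gene of a monocyte-lineage factor, had 2 adjoining peaks at its start. Both were called lower only in groups that received P or L. The peak over the start (chr4:55531999-55533653) stood at 57.5 and 47.2 CPM in control, 39.1 and 36.8 CPM with P and 36.4 and 35.9 CPM with LH, and fell in 8 stimulations, with a log2 fold change of -0.53 ± 0.11, adjusted p = 3.45e-05 for LH. The second, 1505 bp past the start (chr4:55530020-55531921), fell in 9, the groups with P or L, for example from 23.6 and 25.6 to 17.8 and 18.6 CPM with PcG (-0.44 ± 0.14, adjusted p = 0.0091). The fall of the first peak was lost with total counts (0 of 17 called) and held in 3 of 17 with abundance-dependent offsets. In PLH it went from -0.31 ± 0.11, adjusted p = 0.0187 with TMM to 0.051 with total counts and -0.077 (adjusted p = 0.613) with those offsets. Without control replicate 1 it was -0.16 in PLH and -0.17 in PScG, and neither was called.

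At Spi1 the peak over the lower-coordinate gene end (chr2:91081785-91085146) held 42.5 and 50.4 CPM in control, and rose with cG (52.7 and 61.2 CPM, 0.29 ± 0.11, adjusted p = 0.036) while it fell in 6 others, among them PH (33.5 and 34.7 CPM, -0.45 ± 0.11, adjusted p = 0.000749) and ScG (37.02 and 35.1 CPM, -0.37 ± 0.11, adjusted p = 0.00873). S and cG together therefore gave a lower value than either alone, by -0.57 ± 0.11, adjusted p = 0.00107 against S and -0.66 ± 0.11, adjusted p = 6.35e-06 against cG, although these 2 comparisons cross the mitochondrial sets. The fall in PScG, -0.28 ± 0.11, adjusted p = 0.0384, turned to 0.083 with total counts and was -0.12 (adjusted p = 0.406) with abundance-dependent offsets, and was lost without control replicate 2 (-0.15) or PScG replicate 1 (-0.21). P alone was lower than L, S and cG alone within the low mitochondrial set, for example by 0.57 ± 0.11, adjusted p = 9.04e-06 for cG minus P.

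The remaining start peaks were called in fewer stimulations. The Cebpb start peak (chr2:167687485-167690228) held 41.2 and 46.3 CPM in control and was called only in PH (35.6 and 32.8 CPM, -0.36 ± 0.11, adjusted p = 0.0077) and ScG (36.3 and 32.9 CPM, -0.34 ± 0.11, adjusted p = 0.0154). With total counts it was instead called higher in 6 stimulations and lower in 0. Between single ligands it was higher with L, at 50.9 and 52.4 CPM, than with P (0.49 ± 0.11, adjusted p = 0.00034), and lower with S than with L (-0.50 ± 0.11, adjusted p = 0.000218). The Bcl6 outer start peak (chr16:23987771-23989170) rose in 5 stimulations, from 11.1 and 10.8 CPM in control to 17.7 and 18.3 CPM with ZScG (0.71 ± 0.18, adjusted p = 0.00091) and 15.7 and 17.8 CPM with PScG (0.61 ± 0.18, adjusted p = 0.00276). All 5 contained cG or S, though other stimulations with cG or S were not called. The PScG call was lost without PScG replicate 2 (0.52). The inner Bcl6 start peak (chr16:23980990-23981622), over the window with 3 STAT matches, held 2.08 and 1.93 CPM in control and was called in no stimulation. Its highest log2 fold change was 0.88, and 3 stimulations were called higher with total counts.

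Runx3 has 2 listed starts. The peak over the first (chr4:135120248-135120807) was lower with ZScG, at 4.02 and 4.14 CPM against 7.32 and 7.53 CPM in control (-0.86 ± 0.29, adjusted p = 0.0129). That call was lost without control replicate 2 or either ZScG replicate, at -0.88 to -0.84. The peak over the second (chr4:135152046-135153905) was higher with ZS, at 16.5 and 18.3 CPM against 8.41 and 11.9 CPM (0.77 ± 0.19, adjusted p = 0.000956), and lower with PH, at 6.18 and 7.47 CPM (-0.57 ± 0.20, adjusted p = 0.0249). ZS also exceeded S alone at that peak (1.00 ± 0.19, adjusted p = 0.000124). With total counts the second start peak was called higher in 4 stimulations and lower in 0, so that the PH call was lost. At Zbtb46 no peak overlapped the listed start. The nearest, 355 bp away (chr2:181423933-181424134), held 1.64 and 0.482 CPM in control. It was called only in PL (-2.05 ± 0.81, adjusted p = 0.0453), where 1 of the 2 libraries held no count. That start lies within the gene body (chr2:181371009-181493262), so the level there does not speak for starts that are not listed. A wider intragenic peak 35219 bp upstream of it (chr2:181458454-181460760) had a mean of 28.9 CPM over all libraries. It was called higher in 7 stimulations and lower in 1.

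**Figure D3:**
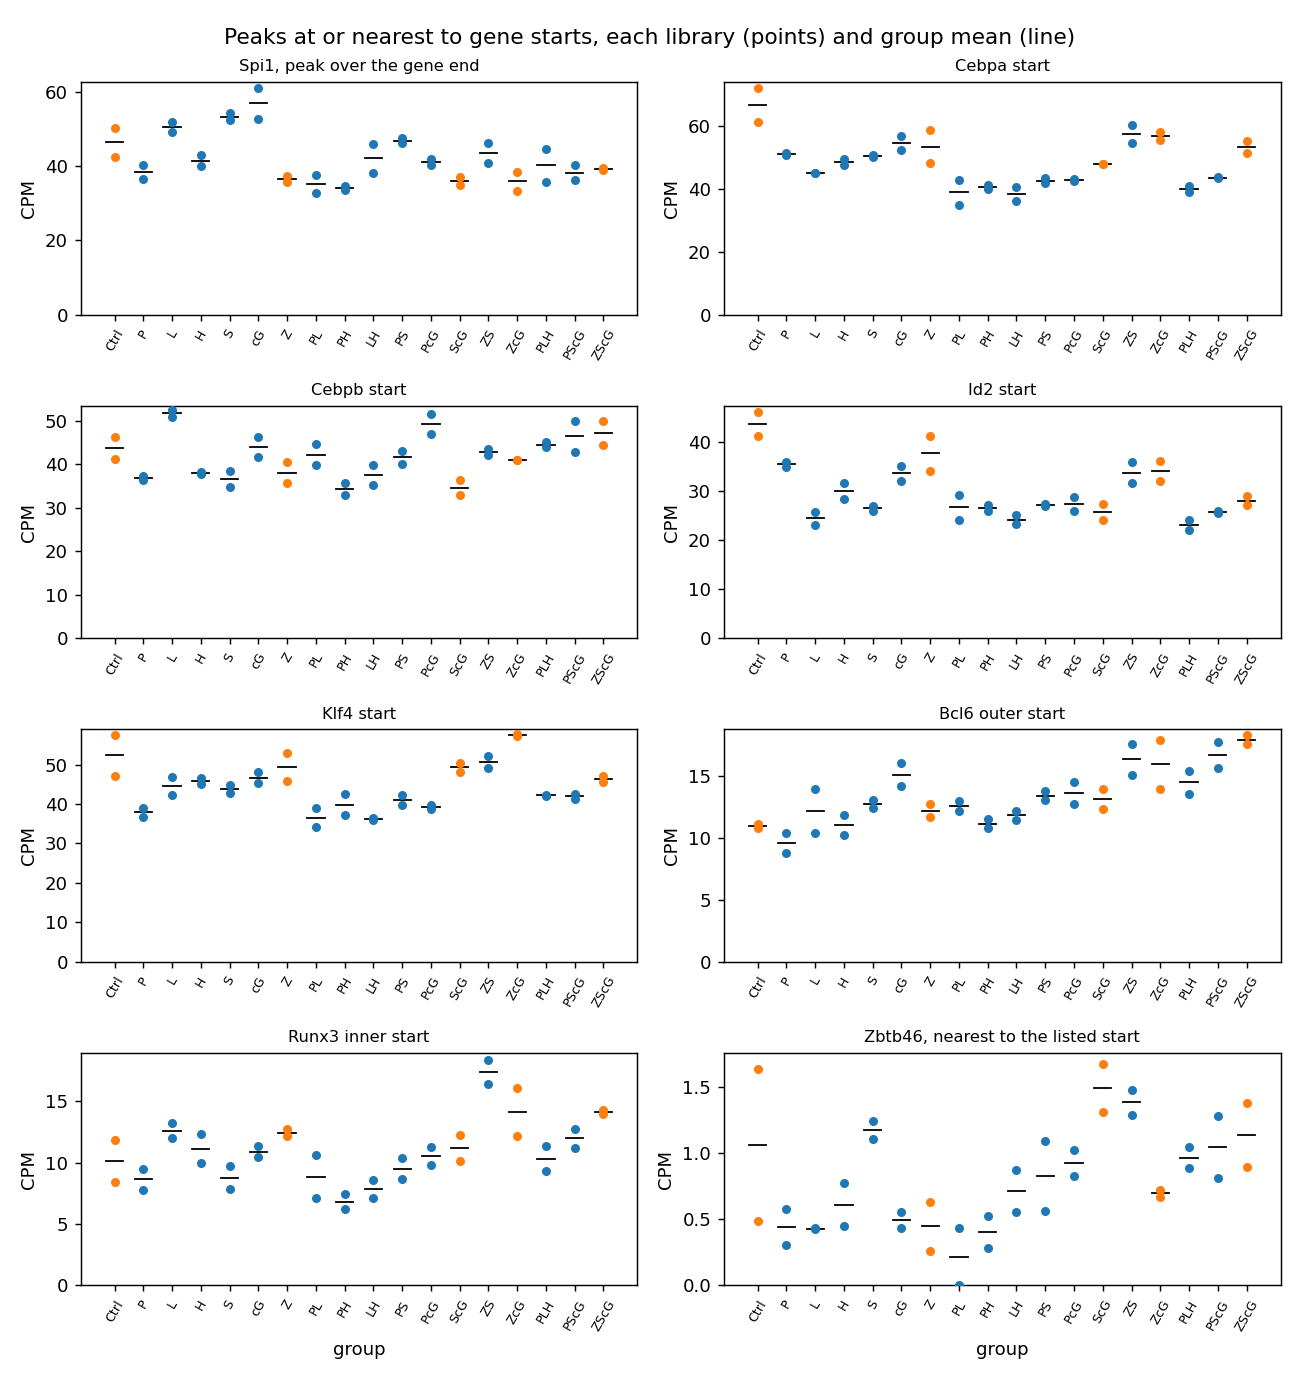
TMM-scaled CPM (vertical axes, from 0) of 8 peaks at or nearest to gene starts in each of the 18 groups (horizontal axes). Points are libraries, orange for control, Z, ZcG, ScG and ZScG and blue for the rest, and lines are means of 2. The control points of Cebpa, at 61.4 and 72.00 CPM, stand above all others, and those of Id2, at 41.2 and 46.2 CPM, above all but 1 Z library at 41.3 CPM.

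Levels can be compared between peaks per length. The highest mean over all libraries was 35.7 CPM per kb, at a peak 11340 bp before Spi1 (chr2:91069832-91071034) that lies over the start of the neighbouring Slc39a13 and was called in none of the 60 comparisons. The Klf4 start peak followed at 26.9 CPM per kb and a peak 2475 bp upstream of the Zbtb46 gene body (chr2:181495737-181497948), which lies over the start of Tpd52l2, at 19.1. Id2 stood at 15.97, Cebpa at 15.4, Cebpb at 15.2, Spi1 at 12.5, the Bcl6 outer start at 9.59 and the second Runx3 start at 5.89 CPM per kb. On this scale the libraries of Id2, Cebpa and Cebpb overlapped, so that their order is not beyond the spread over groups.

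Away from the starts, 1 peak before Spi1 was the only member whose libraries with P or L did not overlap the others. The peak 9956 bp before the gene (chr2:91071946-91072418) held 0.656 and 1.16 CPM in control. In the 18 libraries that received P or L, alone or in combination, it ranged from 3.09 to 5.90 CPM with a median of 4.28, and in the 18 libraries without either it ranged from 0.394 to 2.21 CPM with a median of 0.861. The 2 sets did not overlap, which was so, with P or L higher, for 0.340% of all tested peaks. It was called in all 9 groups with P or L, from 1.94 ± 0.43, adjusted p = 0.000226 in LH to 2.54 ± 0.42, adjusted p = 1.79e-07 in PH, and in none of the 8 stimulations without them. Comparisons within the low mitochondrial set gave the same split: S minus P was -2.41 ± 0.39, adjusted p = 1.2e-07, cG minus L was -2.55 ± 0.39, adjusted p = 2e-07, and adding P to S raised it by 2.40 ± 0.38, adjusted p = 9.1e-07. P and L together gave 3.09 and 4.58 CPM, no more than 4.27 and 5.27 with P or 5.79 and 4.91 with L alone, and the pair fell short of the sum of both log2 effects by -2.86 ± 0.54, adjusted p = 4.2e-05.

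Other intervals at these loci with values for named ligands, described here after their values were seen, were peaks 8302 bp past the Cebpa start and within Spi1. The Cebpa peak (chr7:35126864-35128327) stood at 11.7 and 9.55 CPM in control, 22.8 and 24.2 CPM with P, 16.5 and 17.8 CPM with L, 18.8 and 15.00 CPM with Z and 10.4 and 8.73 CPM with S. It rose in the 9 groups with P or L and in Z, with a log2 fold change of 1.15 ± 0.17, adjusted p = 5.64e-09 for P and 0.66 ± 0.18, adjusted p = 0.00959 for Z. It was lower with S than with P by -1.30 ± 0.16, adjusted p = 4.42e-12. Thus within 1 locus the start peak was lower and this peak higher in the same 9 groups. A Spi1 intragenic peak (chr2:91089042-91089791) was called higher in P, L, PH and PcG, from 3.39 and 3.09 CPM in control to 7.35 and 6.90 CPM with L (1.14 ± 0.30, adjusted p = 0.00253).

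A second intragenic Spi1 peak (chr2:91096288-91099502) had another pattern. It held 21.96 and 21.2 CPM in control, 34.9 and 41.1 CPM with S, 36.6 and 39.8 CPM with cG, 25.1 and 27.1 CPM with P and 22.9 and 22.5 CPM with H, and it was called higher in L, S, cG and 8 combinations. S exceeded P by 0.54 ± 0.12, adjusted p = 0.000127 and cG exceeded H by 0.75 ± 0.12, adjusted p = 1.51e-06, so that the S and cG libraries stood above all P and H libraries. The 2 Spi1 peaks named by the rule of largest rise and fall were the one before the gene above and an intragenic peak (chr2:91090849-91091234) lower with P at 0.229 and 0.650 CPM against 0.765 and 2.03 CPM (-1.65 ± 0.62, adjusted p = 0.0434), a call lost without control replicate 2 (-0.77) or P replicate 1 (-1.11), with total counts and with DESeq2.

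Zbtb46 held the largest rise among the named peaks, 11228 bp into the gene upstream of its listed start (chr2:181435311-181435922). The 2 control libraries had 3 and 5 counts there, 0.328 and 0.482 CPM, and PScG reached 6.82 and 7.61 CPM (4.11 ± 0.46, adjusted p = 2.19e-14). It was called in every stimulation but H. ZScG stood at 5.36 and 6.34 CPM, ScG at 5.58 and 5.90 CPM, S at 2.94 and 4.98 CPM, cG at 3.02 and 3.65 CPM, P at 1.83 and 0.650 CPM and H at 1.21 and 0.517 CPM. S exceeded P (1.68 ± 0.37, adjusted p = 0.000118) and H (2.13 ± 0.39, adjusted p = 1.35e-05), and P with cG exceeded P alone (1.99 ± 0.36, adjusted p = 7.2e-06). The ZScG and ScG rises stay within the high mitochondrial set, at 3.80 ± 0.48, adjusted p = 1.96e-11 and 3.78 ± 0.48, adjusted p = 1.69e-11.

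The next peak on one side of it and the second on the other were nearly empty in control, with 2 counts in 1 control library and 0 in the other at each, so that no fold is given. The peak between (chr2:181436169-181436708) held 2.51 and 1.83 CPM in control and was called in no stimulation. The one 9008 bp from the listed start (chr2:181433255-181433537) reached 2.25 and 2.78 CPM with PScG and 2.42 and 2.19 CPM with ScG, and was called in 7 stimulations, all with S or with P and cG. The one 13171 bp away (chr2:181437404-181437714) reached 1.71 and 2.42 CPM with PScG and was called in 6. A peak near the other end of Zbtb46 (chr2:181483106-181484198), also described after its values were seen, behaved otherwise: it held 10.5 and 9.17 CPM in control, 21.8 and 19.6 CPM with S (1.07 ± 0.18, adjusted p = 3.72e-07), 15.8 and 17.6 CPM with Z and 12.6 and 11.7 CPM with PS. Adding P to S lowered it by -0.77 ± 0.16, adjusted p = 0.000655, and adding L to H by -0.99 ± 0.18, adjusted p = 4.7e-05. Among Zbtb46 peaks averaging at least 1 CPM, with both stimulated libraries beyond both controls, the lowest called fold change was in ZcG (chr2:181377094-181377688). It was -1.06 ± 0.41, adjusted p = 0.0476, and was lost without control replicate 2 (-0.48) or either ZcG replicate (-1.15 and -0.98). The peak over the Tpd52l2 start was lower in PL, PcG and PLH, at most by -0.34 ± 0.11, adjusted p = 0.0115.

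At Klf4, a peak 15208 bp past the gene (chr4:55511350-55511929) was higher in groups with and without a lower start peak. It had 4 and 3 counts in control, 0.437 and 0.289 CPM, and 3.99 and 3.26 CPM with S, 2.98 and 4.37 CPM with ScG, 2.47 and 2.37 CPM with L, 0.534 and 1.01 CPM with P and 0.919 and 0.630 CPM with Z. It was called higher in 14 of 17, all but P, H and Z, with 3.31 ± 0.56, adjusted p = 4.07e-07 for ScG and 3.30 ± 0.55, adjusted p = 2.19e-07 for S. S exceeded P by 2.21 ± 0.44, adjusted p = 2.67e-05, and L exceeded P by 1.63 ± 0.46, adjusted p = 0.0083. A neighbour 17834 bp past the gene (chr4:55508692-55509303) went the other way, from 4.15 and 4.53 CPM in control to 1.44 and 1.71 CPM with PScG (-1.45 ± 0.38, adjusted p = 0.000944) and 1.79 and 1.52 CPM with ZScG (-1.38 ± 0.40, adjusted p = 0.0043). It was called in PS, ScG, PScG and ZScG, each of which contains S, but not in S alone or ZS.

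The peak called in all 17 stimulations lay 10846 bp before the Bcl6 outer start (chr16:23999301-24000096). It held 3.82 and 5.40 CPM in control, the 2 lowest of the 36 libraries. Single ligands gave 9.27 and 9.57 CPM with H, 9.58 and 11.3 CPM with Z, 13.9 and 13.4 CPM with P and 13.2 and 13.7 CPM with S, and PS gave the most, 14.7 and 19.6 CPM. The log2 fold change ranged from 0.90 ± 0.23, adjusted p = 0.00175 in ZcG to 1.89 ± 0.20, adjusted p = 1.45e-15 in PS. An intragenic Bcl6 peak (chr16:23982213-23983532) was called higher in 12, from 7.65 and 7.04 CPM to 17.6 and 17.6 CPM with PLH (1.26 ± 0.19, adjusted p = 9.11e-09), and the lowest called value at Bcl6, in Z (chr16:23977744-23978188), was -1.51 ± 0.50, adjusted p = 0.0493. It was lost without either control replicate (-1.74 and -1.25), without Z replicate 2 (-0.87) and with DESeq2.

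**Figure D4:**
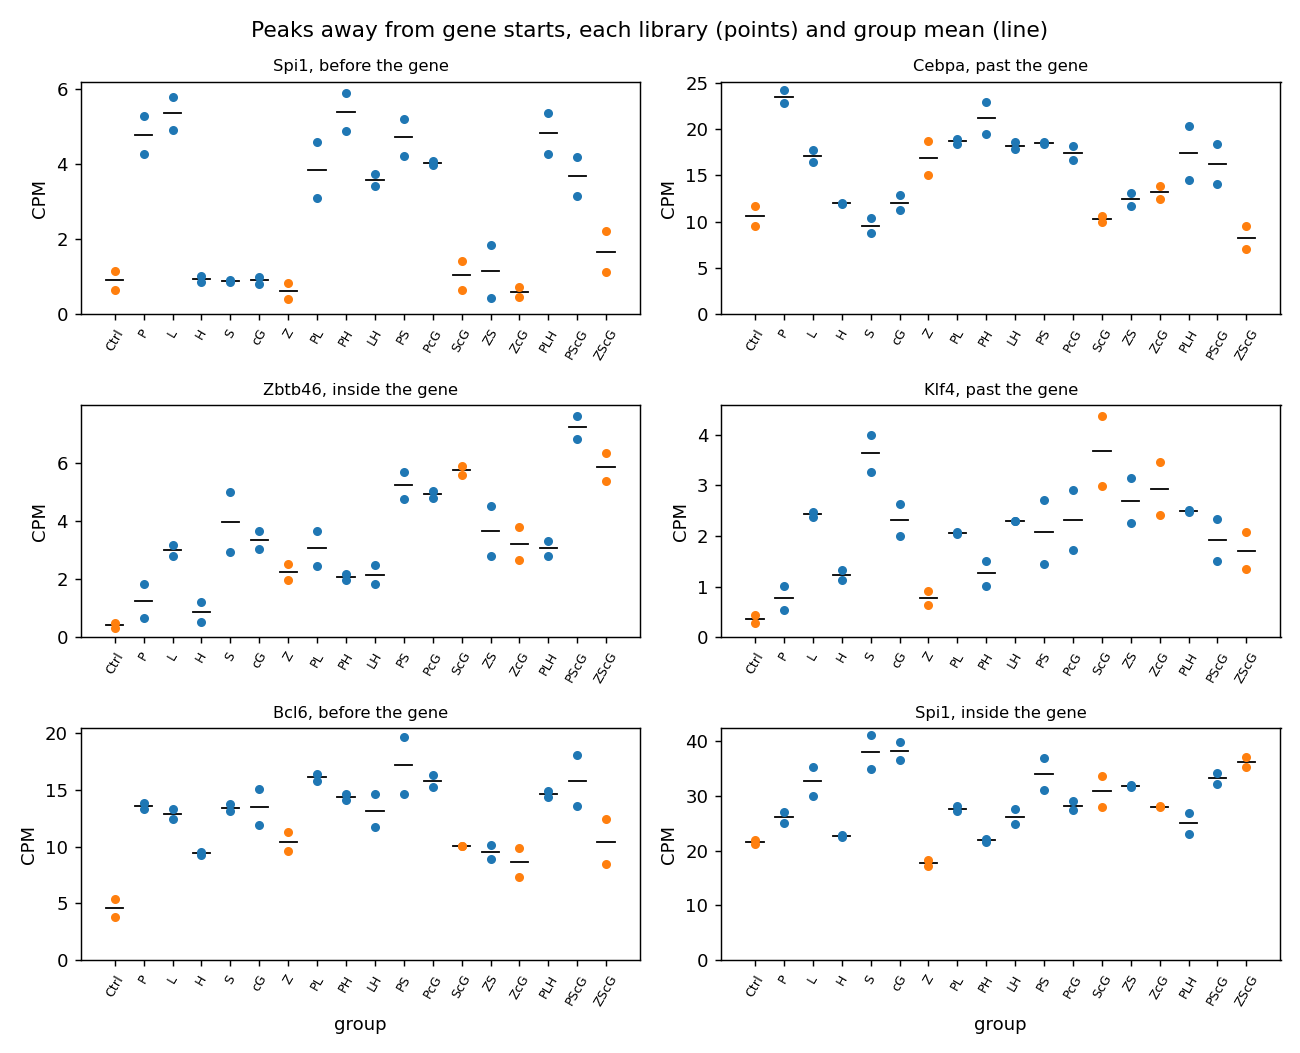
TMM-scaled CPM (vertical axes, from 0) of 6 peaks away from gene starts in each of the 18 groups (horizontal axes), libraries as points (orange for control, Z, ZcG, ScG and ZScG, blue for the rest) and means of 2 as lines. The Spi1 peak 9956 bp before the gene stands at 3.09 to 5.90 CPM wherever P or L was given and at 0.394 to 2.21 CPM elsewhere.

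Rises were also called at the other loci. At Runx3, an intragenic peak (chr4:135159638-135160650) rose from 2.40 and 2.32 CPM in control to 8.17 and 7.97 CPM with PScG (1.77 ± 0.31, adjusted p = 4.48e-07) and 7.71 and 6.48 CPM with ZScG, and was called in 12 of 17. P with 2.44 and 3.40 CPM and PH with 2.50 and 2.36 CPM were among those not called. A peak 14602 bp past Runx3 (chr4:135192592-135193436) rose in 11, most with cG (13.9 and 15.2 against 6.56 and 8.97 CPM, 0.90 ± 0.20, adjusted p = 0.000146). At Cebpa, a peak 11055 bp past the gene (chr7:35132983-35133440) rose in 12, from 2.19 and 2.51 CPM to 7.40 and 7.35 CPM with PS (1.64 ± 0.31, adjusted p = 3.27e-06), and one 2816 bp past it (chr7:35124744-35125123) was lower in PLH (-1.59 ± 0.46, adjusted p = 0.00425) and PScG. The PLH call there was lost without control replicate 1 (-1.12) or PLH replicate 1 (-1.41). At Cebpb, a peak 4522 bp before the gene (chr2:167684006-167684393) was higher in 5, most in ZScG (2.57 and 3.03 against 1.09 and 0.0965 CPM, 2.27 ± 0.60, adjusted p = 0.00159), but not without control replicate 2 (1.35, adjusted p = 0.134). A peak 10031 bp past it (chr2:167700463-167700954) was higher in 9, for example PS (4.58 and 4.85 against 1.64 and 1.16 CPM, 1.76 ± 0.39, adjusted p = 9.75e-05). The lowest called value at Cebpb was -1.48 ± 0.60, adjusted p = 0.0499 in PLH (chr2:167709952-167710265). It was lost without either control replicate or PLH replicate 1 (-1.71 to -0.86) and with 6 other settings.

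At Id2, a peak 4055 bp past the gene (chr12:25089366-25089744) rose in 7 combinations and in no single ligand, from 0.328 and 0.579 CPM in control to 2.87 and 3.20 CPM with PScG (2.70 ± 0.58, adjusted p = 5.34e-05). A peak 4733 bp before the gene (chr12:25100825-25101428) fell in 6 pairs and likewise in no single ligand, from 4.26 and 3.38 CPM to 1.68 and 0.893 CPM with PcG (-1.53 ± 0.42, adjusted p = 0.00211), a call lost without PcG replicate 2 (-1.17). Adding S to P raised the first of these by 1.38 ± 0.50, adjusted p = 0.0366, the only comparison of a pair with a single ligand called at either peak.

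Ligands alone were compared with each other without the control libraries. Of the 107 peaks, 35 were called in at least 1 of the 10 comparisons between P, L, H, S and cG (40.5% of all peaks), with 92 calls. The members called numbered 24 for cG against P (23.8% of all peaks), 18 for S against P (24.5%), 9 for L against P (11.1%), 8 for cG against H (7.36%), 7 for S against H (9.06%), 7 for H against L (3.71%), 7 for S against L (9.84%), 6 for cG against L (7.23%) and 6 for H against P (12.1%). For cG against S the number was 0 with edgeR (0.949% of all peaks), and 10 of the 107 had an unadjusted p under 0.05. With DESeq2 the number for cG against S was 0.

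Pairs were compared with each of their single ligands in 16 comparisons, which gave 99 member calls. Of all peaks, 0.0645% (LH against L) to 18.1% (PS against P) were called in these comparisons. PS and PcG each differed from P at 15 peaks (18.1% and 14.7% of all peaks), 12 of them higher. Over all peaks, 9.36% were higher and 8.78% lower in PS, and 7.39% and 7.35% in PcG. PS differed from S at 3 (2.93%) and PcG from cG at 10 (9.11%), 7 of these lower. Over all peaks, PcG against cG went more often the other way, with 5.59% higher and 3.52% lower. Adding H changed few peaks, with 2 called between PH and P (2.66%) and 2 between LH and L (0.0645%). Among the comparisons with Z, 7 peaks differed between ZS and Z (15.2% of all peaks), and all 7 were higher in ZS. Over all peaks, 6.63% were higher and 8.53% lower in ZS than in Z. Between ZcG and Z, 3 member peaks differed (9.07%). ZS against Z crosses the mitochondrial sets, as do ScG against S and cG and ZcG against cG, and ZcG against Z stays within the high one.

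Where pairs departed from the sum of their single ligands on the log2 scale, they mostly fell short of it. The 8 interactions gave 46 calls at 25 peaks (21.9% of all peaks had at least 1), and 44 of the 46 were negative. Over all peaks negative calls also outnumbered positive ones in each of the 8, for example 4.18% against 2.57% in PL, 7.52% against 6.92% in ScG and 2.60% against 0.826% in ZS. ScG had the most, 15 (14.4% of all peaks), then PL with 8 (6.75%), LH with 6 (4.88%), ZS with 5 (3.43%), PcG and ZcG with 4 each (3.27% and 2.49%), and PH and PS with 2 each (1.55% and 4.59%). The Bcl6 peak called in all 17 was below the sum in 7 of the 8 pairs, most in ScG (-1.96 ± 0.28, adjusted p = 7.87e-09): S, cG and ScG stood at 13.2 and 13.7, 11.9 and 15.1 and 10.1 and 10.1 CPM. The 2 positive calls were the start peaks of Cebpa (0.50 ± 0.15, adjusted p = 0.0312) and Id2 (0.56 ± 0.17, adjusted p = 0.043) in ZS, where the pair was less low than the sum of Z and S. The control and ScG libraries are in the high mitochondrial set while S and cG are in the low one, and the part of that set in the ScG count was not tested.

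**Figure D5:**
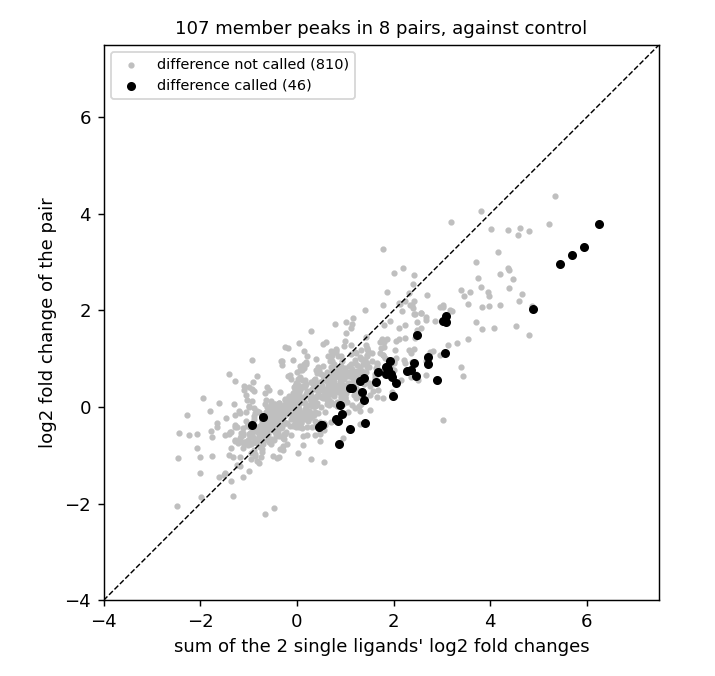
For each of the 107 member peaks in each of the 8 pairs, the fitted log2 fold change of the pair against control (vertical axis) against the sum of the log2 fold changes of its 2 single ligands (horizontal axis). The dashed line marks equality, black points the 46 called differences, and both axes share the 2 control libraries. Of the black points, 44 lie below the line.

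Adding the remaining ligand of a triplet to a pair gave few calls at these loci. The 9 comparisons of a triplet with its pairs gave 11 calls at 9 peaks (8.19% of all peaks had at least 1), and 9 of the 11 were PScG against ScG (4.53%). That comparison and ZScG against ZS cross the mitochondrial sets. One of the 9 was the Spi1 peak 9956 bp before the gene, 0.651 and 1.42 CPM in ScG and 3.14 and 4.20 CPM in PScG (1.86 ± 0.43, adjusted p = 0.00185). Without ScG replicate 1 the number of calls was 4, without ScG replicate 2 it was 5, and without PScG replicate 1 or 2 it was 6 or 7.

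For comparison, 30 other lineage regulators, from Runx1, Irf4 and Irf8 to the growth factor receptor genes Csf1r and Csf2rb, had 597 tested peaks in windows of the same size. Of these, 219 were called higher and 201 lower in at least 1 stimulation (35.0% and 34.1% of all peaks). Irf8, a factor of conventional type 1 dendritic cells, had 8 of 16 peaks higher and 6 lower, and Fli1 had 4 of 29 higher and 18 lower. Csf2rb, a subunit of the GM-CSF receptor, had 11 of 21 higher and 2 lower. Beside these, 48 of the 107 member peaks were called higher and 25 lower.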

How the data were processed

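ATAC-seq libraries from 18 groups of 2 bone marrow-derived dendritic cell samples were analysed from 1 table of counts per peak and 1 list of peak intervals. Per the submitters' processing notes, Bowtie2 2.2.9, MACS2 (version given as 1.4), bedtools and featureCounts were used with mm10. The values deposited by the authors are raw, unnormalized counts per peak, with 1 peak set shared by all samples. The order of these steps, read filters and any shift of reads are not given in the sources used here.

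The mitochondrial peak was left out, and peaks were kept by filterByExpr (minimum count 10), which left 119464 of 119751. Counts were scaled by TMM and fitted with edgeR 4.0.16 (R 4.3.3, limma 3.58.1; robust quasi-likelihood test, trended dispersion, 18 residual degrees of freedom) over all 36 libraries, 1 coefficient per group, in 60 comparisons. Each p-value was adjusted by the Benjamini-Hochberg method over all tested peaks of its comparison, with a threshold of 0.05. The test was also run on simulated counts with a fixed dispersion and changes placed in P only. That simulation held no mitochondrial sets, so it does not bear on how calls depend on scaling. Alternatives were median-of-ratios and total-count scaling, no low-count filter, the mitochondrial peak kept, DESeq2 1.42.0, a replicate block, windows of the gene body or 50 kb, leaving out each library, fits within the low or high mitochondrial set, and, chosen after seeing the data, offsets that depend on abundance. Scripts used every count column.

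The members and lists were chosen with earlier results of these data known. Per gene, the peaks named were those over a start (else nearest to it or, for Spi1, whose strand was not in the table, over a gene end), the one with the highest mean CPM, and those with the highest and lowest fold change among called peaks with a mean of at least 1 CPM and both stimulated libraries beyond both controls. Others named were chosen after their values were seen. Gene positions and start windows came from the RefSeq table of GRCm38.p6. Precision is limited by 2 libraries per group.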

Additional observations from a re-analysis of the deposited data

Results flagged for a closer look

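At some member peaks the effect of a ligand differed with the presence of a second one, in each of the 8 pairs, by a test of the interaction (edgeR quasi-likelihood test, Benjamini-Hochberg adjusted p under 0.05 over all tested peaks). The number of member peaks with such a difference was 15 for ScG (14.4% of all peaks), 8 for PL (6.75%), 6 for LH (4.88%), 5 for ZS (3.43%), 4 for PcG (3.27%), 4 for ZcG (2.49%), 2 for PH (1.55%) and 2 for PS (4.59%), in most pairs near the share of all peaks. At the Spi1 peak over the gene end the interaction of S with cG was -0.86 on the log2 scale, and at the Spi1 peak 9956 bp before the gene that of P with L was -2.86. At Cebpa the start peak gave 0.50 for Z with S, and the peak 11055 bp past the gene gave -1.34 for P with L. The Id2 start peak gave 0.56 for Z with S. The Zbtb46 peak with the largest rise gave -2.47 for S with cG, -2.55 for Z with S and -2.49 for Z with cG. The Klf4 peak 15208 bp past the gene gave -2.64 for S with cG. At Runx3, the intragenic peak gave -1.53 and the peak past the gene -0.78, both for S with cG. The Bcl6 peak before the outer start gave -1.96 for ScG, -1.82 for ZcG and -1.67 for ZS, and in the pairs with P or L it gave -1.33 in PcG, -1.23 in PL, -1.19 in PS and -0.99 in LH. All 8 interactions use the same 2 control libraries, and without control replicate 1 the 46 calls became 31.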

How the results depend on the processing

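Counts of calls were recomputed with each alternative. Scaling by total counts moved the higher calls from 299 to 505, the lower from 97 to 31, the pair against single ligand calls from 99 to 165, the interactions from 46 to 122 and the triplet against pair calls from 11 to 23, and reversed the Spi1 gene end peak in PScG (0.083) and the Klf4 start peak in PLH (0.051) and PScG (0.051). By construction, the gene body alone, with fewer peaks, gave 35 peaks called, 127 higher, 63 lower, 61 pair, 29 interaction, 5 triplet and 56 single ligand calls, and 50 kb gave 119, 486, 227, 167, 78, 16 and 166. Leaving out 1 library gave 51 to 70 peaks called, 207 to 299 higher and 56 to 98 lower calls (fewest without control replicate 1 for both), 82 to 97 pair, 31 to 46 interaction, 4 to 11 triplet and 72 to 82 single ligand calls. The replicate block gave 66 peaks called, 298 higher, 95 lower, 98 pair, 46 interaction, 11 triplet and 92 single ligand calls, and the Cebpb peak in PLH and the Zbtb46 peak in ZcG were not called with it. The labels' numbers were not taken as pairs, since the replicate differences of 153 pairs of groups correlated by -0.040 to 0.030. Abundance-dependent offsets gave 67 peaks called, 306 higher and 78 lower calls, and the other alternatives stayed within 1.5 times. A fit within the high mitochondrial set alone gave 64 calls, against 80. Recomputing 27 named values gave 252 values with the same direction and call, 50 that lost the call and 3 that reversed, and the causes were not tested. Depth limits peaks under 1 CPM most, where a group rests on a few counts.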
